A study of Mus musculus with 3 samples.

Results

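S100 calcium-binding protein genes were followed in the back skin of wild type (WT) mice, IL-10 knockout (KO) mice and KO mice given pESM (KOE). The genes were chosen by name, 10 in all among 18193 genes on the array, namely S100a7l2, S100a8, S100a9, S100a3, S100a4, S100a6, S100a10, S100a11, S100a13 and S100a16. They were chosen with earlier results of the same arrays known, so their signals are given as a description and without a test. Of the 10 genes, 9 had probe sets of their own, 12 probe sets in all. The 10th, S100a11, had 1 probe set, which the platform annotation gives to 3 genes, and no value is given for it.

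The WT group was C57BL/6J on an AIN-93-based diet, the KO group was homozygous for the Interleukin-10 knockout on the same diet, and the KOE group had this knockout with a diet holding 8% pESM, a powder of eggshell membrane. All mice were male and housed singly, feeding began at 4 weeks of age and lasted 28 weeks, and the dermal white adipose tissue was taken off the skin. Per the labels there were 5 WT, 7 KO and 6 KOE mice, and pooled RNA was used, so that 1 array stands for each group. How many of the mice entered each pool is not stated. WT mice on pESM and the spread between mice were not measured by these arrays. The KO mice came from crosses between the knockout line and C57BL/6J and were not stated to be littermates of the WT mice.

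S100 proteins are small calcium sensors with a pair of EF-hand loops that form dimers and, on binding calcium, expose a surface for partner proteins. Inside cells S100A10 and S100A11 hold annexins at membranes, S100A4 binds nonmuscle myosin, and S100A6 binds the ubiquitin ligase adaptor encoded by Cacybp. S100A8 and S100A9 form calprotectin, an abundant metal-binding dimer of neutrophils that keratinocytes also make when the epidermis is injured or inflamed, and outside cells it signals through TLR4 and RAGE. S100A3 is a cysteine-rich protein of the hair cuticle, where it is modified by the enzyme PADI3.

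Each array held 45037 probe sets besides the controls, and between 29390 and 31298 of them reached a signal of 40. A signal is the brightness of a probe set on a linear scale, so it compares arrays for 1 probe set and does not rank different genes. The cut-off used for a gene was a difference of 1.5-fold or more with a signal of 40 or more on either of the arrays compared. In skin as a whole, fewer cells of a type and less RNA per cell cannot be told apart. The knocked-out gene itself, Il10, gave 17.0, 679.9 and 401 on the WT, KO and KOE arrays. The sources do not say which part of the altered transcript this probe set reads, so it is no check of the genotype. All 3 comparisons share arrays, KO vs. WT and KOE vs. KO sharing the KO array, so their values are not independent.

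In KO vs. WT, 1 of the 9 measured S100 genes was higher in KO and 2 were lower, against 10.9% and 14.5% of 14495 genes. In KOE vs. KO, 2 were higher in KOE and 2 lower, against 10.9% and 5.33% of 14594 genes. In KOE vs. WT, 1 was higher in KOE and 3 were lower, against 12.4% and 10.4% of 14784 genes. The median log2 fold change of the 9 genes was 0.06, −0.12 and 0.08 in these comparisons, and that of all genes was 0.01, 0.02 and 0.05. The genes past the cut-off did not share a direction. The differences lay in S100a7l2, S100a3, S100a8 and S100a9, each with its own pattern over the 3 arrays, while the other 5 genes stayed within 1.5-fold at their strongest probe sets.

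**Figure D1:**
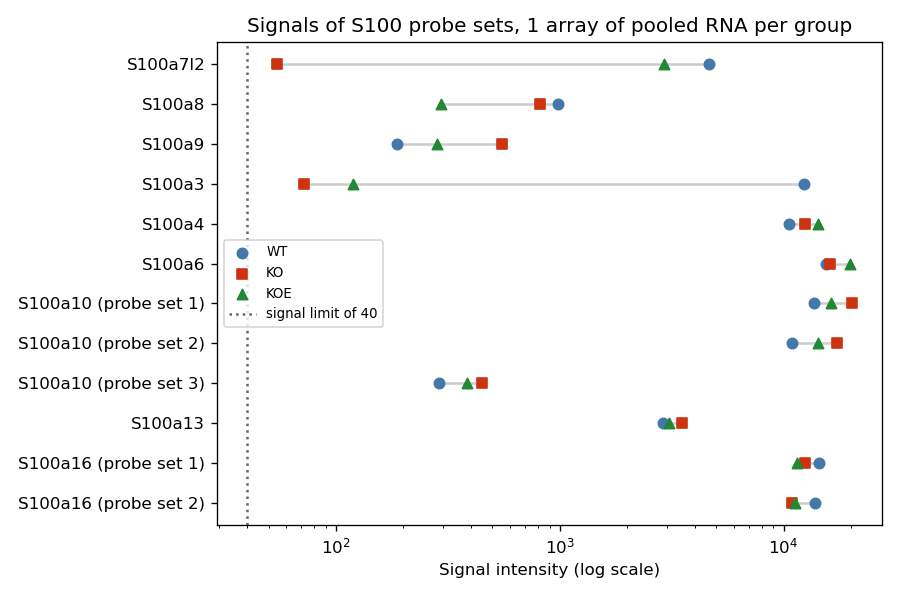
Signal intensity on a log scale of the 12 probe sets of the S100 genes in WT (circles), KO (squares) and KOE (triangles), 1 array of pooled RNA per group, with a dotted line at 40. S100a3 spans from 72.1 in KO to 12353 in WT and S100a7l2 from 54.5 in KO to 4626 in WT, while the markers of S100a4, S100a6, S100a13 and S100a16 lie close together.

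Promoters are shown for the 4 genes past the cut-off, which belong to 1 cluster. The windows shown hold from none to all of the motifs searched, and each but that of S100a9 holds TATAAA. Sequences are from RefSeq for GRCm38.p6, cover the 250 bases before the annotated start and run 5′ to 3′ along the gene. Letters in capitals mark motifs searched on both strands. The AP-1 site was TGACTCA, which reads TGAGTCA from the other strand. The TATA box was TATAAA. The CCAAT box was searched by its name, and reads ATTGG from the other strand. No motif overlaps another in these windows. S100a7l2 lies at chr3:91090806-91091055 (minus strand), S100a8 at chr3:90668821-90669070 (plus strand), S100a9 at chr3:90695722-90695971 (minus strand) and S100a3 at chr3:90588313-90588562 (plus strand).
S100a7l2: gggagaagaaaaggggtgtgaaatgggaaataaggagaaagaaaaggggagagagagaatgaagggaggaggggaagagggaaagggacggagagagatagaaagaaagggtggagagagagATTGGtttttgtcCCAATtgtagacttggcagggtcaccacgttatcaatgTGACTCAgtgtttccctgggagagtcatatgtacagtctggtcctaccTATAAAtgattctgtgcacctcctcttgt
S100a8: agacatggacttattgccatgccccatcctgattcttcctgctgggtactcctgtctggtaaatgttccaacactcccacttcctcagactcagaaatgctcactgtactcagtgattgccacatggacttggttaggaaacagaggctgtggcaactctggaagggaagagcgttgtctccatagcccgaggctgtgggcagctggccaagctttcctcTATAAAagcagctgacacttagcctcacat
S100a9: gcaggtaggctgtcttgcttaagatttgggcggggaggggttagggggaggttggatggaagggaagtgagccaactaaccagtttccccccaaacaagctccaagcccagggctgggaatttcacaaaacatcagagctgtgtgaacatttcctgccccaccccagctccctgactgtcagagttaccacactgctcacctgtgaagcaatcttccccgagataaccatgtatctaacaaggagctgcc
S100a3: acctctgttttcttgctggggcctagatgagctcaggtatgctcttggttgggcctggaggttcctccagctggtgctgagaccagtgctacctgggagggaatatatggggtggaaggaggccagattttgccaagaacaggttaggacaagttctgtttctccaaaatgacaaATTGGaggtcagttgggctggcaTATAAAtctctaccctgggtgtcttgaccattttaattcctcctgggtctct

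The S100a7l2 promoter held an AP-1 site 77 to 71 bases before the start, TATAAA at 29 to 24 bases, CCAAT at 115 to 111 bases and ATTGG at 128 to 124 bases. The S100a8 promoter held TATAAA at 30 to 25 bases and neither of the other motifs. None of the 3 motifs was found in the S100a9 window, which says only that these letters are not there. S100a3 has 4 annotated starts, and the window shown, picked because it alone of the 4 carried a motif, has TATAAA at 52 to 47 bases and ATTGG at 75 to 71 bases.

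Among 13 windows of the 9 members with a promoter entry, 2 held an AP-1 site, 4 held TATAAA and 3 held CCAAT. Of 32851 promoters of the same length, 4.46% held the AP-1 site, 12.4% TATAAA and 33.8% CCAAT. The other AP-1 window was that of S100a11, with TGAGTCA at 136 to 130 and 38 to 32 bases before the start, and the other TATAAA window was that of S100a4, at 31 to 26 bases. A motif match is a description of the sequence and not a measured binding site.

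S100a7l2, a gene of the psoriasin-like S100A7 branch of the family, was far lower in KO than in either WT or KOE. Its probe set read 4626 in the WT, 54.5 in the KO and 2914 in the KOE array. The KO array stood far below the other two, just above the signal limit of 40. WT was 84.9-fold above KO, KOE was 53.5-fold above KO, and WT was 1.59-fold above KOE. In log2 units the fold changes were −6.41 for KO vs. WT, 5.74 for KOE vs. KO and −0.67 for KOE vs. WT. The last of these is small beside the others, and after scaling the arrays to a common median it was −0.56, no longer past the cut-off.

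The genes with the pattern most like that of S100a7l2 were sought among 15010 genes by the distance between centred log2 signals, with signals under 40 set to 40. The nearest was Defb8, a beta-defensin gene, at a distance of 0.46, with 3384 in the WT, 21.5 in the KO and 1439 in the KOE array. The next were Myh4, encoding a fast myosin heavy chain of skeletal muscle, at 1.54, Gal, encoding the neuropeptide galanin, at 1.93, Myl1, a myosin light chain gene, at 2.07, and Aplnr, the apelin receptor gene, at 2.56. Myh4 had signals of 4309, 217 and 3926 in WT, KO and KOE, and Gal had 1093, 70.5 and 780.5. Defb8 was the closest of these by this distance, for which its KO signal of 21.5 was set to 40. Distances without that limit were not computed, so the margin holds only with it.

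Like S100a7l2, most markers of adipocytes and skeletal muscle were lower in KO vs. WT and higher in KOE vs. KO. All 4 measured adipocyte markers were lower in KO vs. WT and all 4 were higher in KOE vs. KO, and their signals summed to 18017, 5093 and 11029 in the WT, KO and KOE arrays. Fabp4 alone, with 15268, 4731 and 9406, made up most of each adipocyte sum, so these sums mainly follow that gene. Of 5 skeletal muscle markers, 4 were lower in KO vs. WT and 5 were higher in KOE vs. KO, and their signals summed to 16434, 7046 and 25553. The adipocyte sums had the order of S100a7l2, lowest in KO and highest in WT, while the muscle sums were highest in KOE, and Myh1, with 2229.6, 2779 and 4804, was not lower in KO than in WT. No marker of the muscle list and 1 of the adipocyte list, Lep, was under 40 in KO. S100a7l2 differed more than the median of either list, which was −2.65 for the adipocyte markers and −1.39 for the muscle markers in KO vs. WT. Single markers came nearer to it. Lep, with 221, 4.0 and 139, had log2 fold changes of −5.78 in KO vs. WT and 5.12 in KOE vs. KO. Those of Myh4 were −4.31 and 4.18. The part of these tissues in the S100a7l2 signal was not tested.

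S100a3, the gene of the hair cuticle protein, was the S100 gene with the widest difference between WT and KO. Its signal was 12353 in WT, 72.1 in KO and 119 in KOE. Only the WT array was high, and WT was 171-fold above KO and 104-fold above KOE, which is −7.42 and −6.70 as log2 fold changes of KO vs. WT and KOE vs. WT. KOE was 1.65-fold above KO, a log2 fold change of 0.72. This last step is about as large as the spread between probe sets at low signal. For this spread, probe sets with a mean signal from 40 to 200 and 40 or more on every array were kept. The 2 strongest of these per gene differed in their KOE vs. KO log2 fold change with an SD of 0.59 over 1180 genes. The step was 0.56 after scaling to a common median or after quantile normalization, which is under the cut-off.

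The genes nearest to S100a3 in pattern were hair genes. Krt31, a hair cortex keratin, lay at a distance of 0.30 with 6623 in the WT, 40.7 in the KO and 50.8 in the KOE array. It was followed by Krtap21-1 at 0.37 and Krtap3-1 at 0.38, which encode keratin-associated proteins, by Prr9 at 0.40, and by Krt35, a hair keratin, at 0.51. Prr9 had signals of 30150.2, 215 and 239. Krtap21-1 and Krtap3-1 read 33.6 and 36.9 in KO, and Krt35 read 35.9 in KO and 9.1 in KOE. These signals were under the signal limit and were set to it for this distance. Distances without that limit were not computed. In KOE vs. KO Krt35 had a log2 fold change of −1.98, against 0.72 for S100a3. Krt31, Krtap21-1, Krtap3-1 and Prr9 had 0.32, 1.47, 0.68 and 0.15 in that comparison. These genes and S100a3 were high in WT and low in both KO and KOE, whereas S100a7l2 was low in KO alone.

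Of 13 hair shaft markers, 12 were lower in KO vs. WT and 13 in KOE vs. WT, while in KOE vs. KO none was higher and 3 were lower. Their signals summed to 95808, 3287 and 2311 in the WT, KO and KOE arrays, and 5 of the 13 were under 40 in KO and 7 in KOE. All 7 inner root sheath markers were lower in KO than in WT, with a median log2 fold change of −7.80, near the −7.21 of the hair shaft markers and the −7.42 of S100a3. In KOE vs. KO 4 of the 7 were lower, with a median of −1.17, whereas S100a3 was at 0.72. In KOE 5 of the 7 were under 40. Padi3, the enzyme that modifies S100A3, read 6189, 21.0 and 14.4 in the WT, KO and KOE arrays and so fell under 40 in KO and KOE. The part of hair follicle content in these values was not tested.

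Other marker lists show what the skin samples held. No basal or suprabasal epidermal gene and no fibroblast gene was under 40 on any array. Of 9 fibroblast genes 1 was lower in KO vs. WT and 1 higher in KOE vs. KO, and of 6 T cell genes and 3 Schwann cell genes 1 each was higher in KO vs. WT and none was past the cut-off in KOE vs. KO. All 5 melanocyte genes were lower in KO vs. WT and 4 were higher in KOE vs. KO, and their signals summed to 13690.4, 914 and 1785 in the WT, KO and KOE arrays. The number higher in KOE vs. KO was 2 after scaling to a common median and 3 after quantile or loess normalization. Like the follicle markers, the melanocyte markers were thus low in KO where S100a3 was low, and their part in its signal was not tested.

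**Figure D2:**
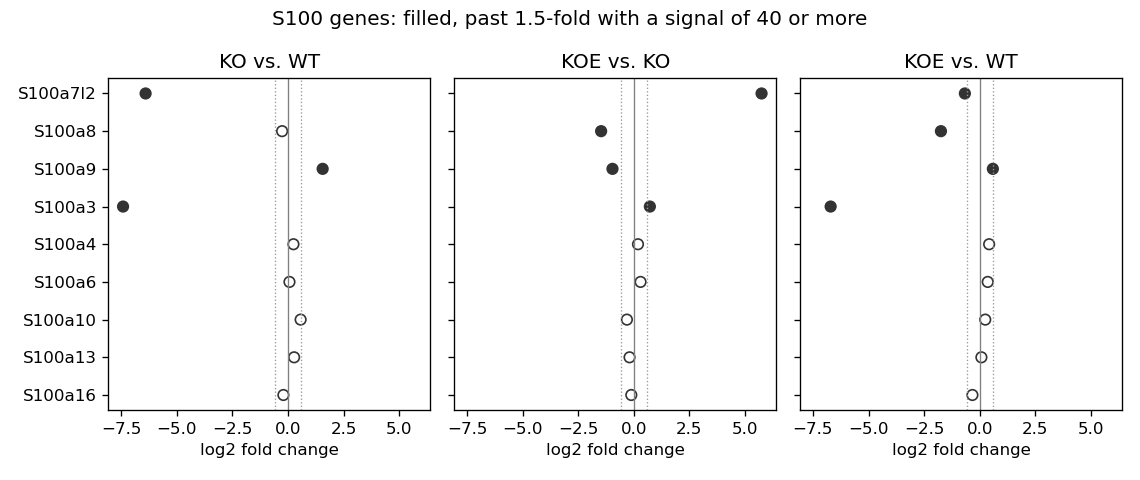
Log2 fold change (x axis) of the 9 measured S100 genes in the 3 comparisons (panels), from 1 array per group, with dotted lines at 1.5-fold. Filled points are past the cut-off, and S100a3 and S100a7l2 lie at −7.42 and −6.41 in KO vs. WT, but at 0.72 and 5.74 in KOE vs. KO.

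S100a8 and S100a9, whose proteins pair with each other, differed in KO vs. WT. S100a9 read 187 in the WT, 550.2 in the KO and 282 in the KOE array. KO was the highest of the 3, with KO 2.94-fold above WT and 1.95-fold above KOE, which is 1.55 and −0.96 as log2 fold changes of KO vs. WT and KOE vs. KO. KOE was 1.51-fold above WT, at the edge of the cut-off, and with 40 added to every signal this log2 fold change went from 0.59 to 0.50 and was not past it.

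S100a8 read 982 in the WT, 815 in the KO and 293 in the KOE array. WT and KO lay close together and KOE was low, with KO 2.78-fold and WT 3.35-fold above KOE. The log2 fold changes were −0.27 for KO vs. WT, −1.47 for KOE vs. KO and −1.74 for KOE vs. WT. After scaling to a common median the KO vs. WT value was 0.00. Both genes were therefore lower in KOE than in KO, while in KO vs. WT S100a9 was past the cut-off and S100a8 was not.

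The gap between these genes in KO vs. WT, log2 fold changes of 1.55 and −0.27, can be set beside the spread between probe sets of 1 gene. At mean signals from 200 to 1000 that spread had an SD of 0.39 over 1965 genes in KO vs. WT and 0.32 in KOE vs. KO. S100a8 was read by 1 probe set of a kind that can match transcripts of more than 1 gene, and S100a9 by 1 probe set without that mark. The gene most like S100a8 in pattern was Kcnd1, a potassium channel gene, at a distance of 0.23 with 108, 95.8 and 39.5 in the WT, KO and KOE arrays. The next were Syt8 and Oas2, both at 0.24, Pcsk4 at 0.29 and Lypd1 at 0.31, and a second Kcnd1 probe set, with 80.0, 25.1 and 49.3, did not share the pattern. In KOE, Kcnd1, Oas2, Pcsk4 and Lypd1 read 39.5, 21.7, 39.9 and 32.0, all set to 40 for this distance.

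Markers of the cells that make calprotectin were read beside these genes. Of 14 measured neutrophil markers, 6 were higher and 3 lower in KO than in WT, and 1 was higher and 5 lower in KOE than in KO. Their signals summed to 6307, 10019 and 6588 in the WT, KO and KOE arrays. Il1r2 alone made up most of each sum, so the sums mainly follow that gene. The 6 higher in KO were Ngp, encoding a neutrophil granule protein, with 26.5, 80.9 and 52.5, Csf3r, the G-CSF receptor gene, with 35.1, 76.5 and 21.8, Mpo with 29.1, 47.7 and 59.8, Mmp8 with 38.3, 58.1 and 47.3, Lcn2 with 209, 1282 and 741, and Il1r2 with 4835, 8050 and 5154. Ngp, Mmp8, Lcn2 and Il1r2 had the order of S100a9, and keratinocytes also express Lcn2 and Il1r2. The 3 lower in KO were Elane with 46.1, 26.0 and 44.4, Stfa2l1 with 90.5, 18.5 and 18.1, and Padi4 with 719.5, 95.3 and 74.2. Cxcr2, Camp and Cd177 were under 40 on every array, and Ly6g was not measured under that name. None of 11 macrophage markers was past the cut-off in KO vs. WT, and 8 were lower in KOE vs. KO, with summed signals of 21790, 26342 and 16437. After scaling to a common median, 8 macrophage markers were higher in KO than in WT. The part of these cells in the S100a8 and S100a9 signals was not tested.

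The epidermal stress genes did not follow S100a9 as a list. Of 10 such genes 2 were higher and 5 lower in KO than in WT, and none was higher and 3 lower in KOE than in KO. Krt6b, a keratin of wounded epidermis, read 31.4, 231 and 102 in the WT, KO and KOE arrays, the order of S100a9, whereas Krt16, another such keratin, had 1443, 653 and 774. Of 9 basal and suprabasal epidermal genes, 1 was lower in KO than in WT and none was past the cut-off in KOE vs. KO. These keratins, Lep, Fabp4, Myh1 and the genes named as neutrophil markers were picked after their values were seen.

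Among cytokines and transcription factors known to induce S100a8 and S100a9, 8 of 15 measured genes were higher and none lower in KO vs. WT, with 1.03 as the median log2 fold change. The 4 genes of this list under 40 in WT were all among these 8. In KOE vs. KO 6 of them were lower and none higher, the median being −0.15, and in KOE vs. WT 4 were higher and 1 was lower. Tnf read 12.9, 77.1 and 54.2 in the WT, KO and KOE arrays, and its KOE vs. KO fold change was past the cut-off only after common median, quantile or loess scaling, as lower in KOE. Il1b had 218 in WT, 486 in KO and 142 in KOE. It was the gene lower in KOE vs. WT, but not after common median, quantile or loess scaling. Fosl1, encoding a subunit of AP-1, had 36.1, 117 and 48.0, and its second probe set stayed under 40 on every array.

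The transcription factors named for their signal stayed within 1.5-fold. Cebpb, encoding a C/EBP factor of myeloid cells and keratinocytes, read 8046, 8054 and 8196 in the WT, KO and KOE arrays, and Hif1a had 5387, 5028 and 5087. Cebpa had 2132, 3129 and 3010, and Stat3 1687, 2386 and 2292. After scaling to a common median the last 2 genes were higher in KO than in WT, with log2 fold changes of 0.82 and 0.77. The 6 genes of the list that were lower in KOE than in KO were Il1b, Il6, Fosl1 and the IL-36 genes Il1f6, Il1f8 and Il1f9, named after their values were seen, and each was also higher in KO vs. WT. Il1f9, for IL-36 gamma, read 473, 1453 and 866, and Il6 reached 40 in KO alone, at 46.3. S100a9, but not S100a8, was past the cut-off in both of these directions. Unlike S100a9, which was lowest in WT, Il1b and Il6 were lowest in KOE, at 142 and 19.4.

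**Figure D3:**
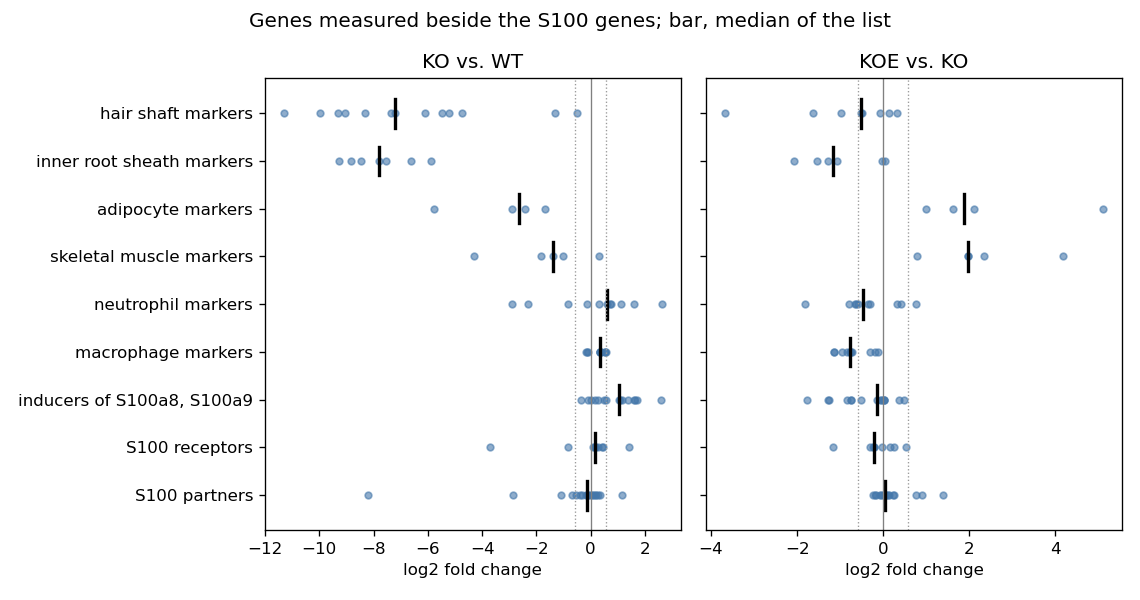
Log2 fold change (x axis) of single genes (points) in lists of markers and S100-related genes for KO vs. WT and KOE vs. KO, 1 array per group, with black bars at list medians and dotted lines at 1.5-fold. Genes under 40 in both arrays are left out. In KO vs. WT the hair shaft median lies at −7.21 and the median for inducers of S100a8 and S100a9 at 1.03, and the skeletal muscle median is −1.39 in KO vs. WT and 1.98 in KOE vs. KO.

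Receptors for extracellular S100 proteins mostly stayed level. Of 10 measured genes 1 was higher and 2 lower in KO vs. WT, 1 was lower in KOE than in KO, and none was past the cut-off in KOE vs. WT. Tlr4, the Toll-like receptor bound by calprotectin, had 193 in WT, 513 in KO and 228 in KOE, the order of S100a9. Of its other probe sets, 1 with 200.2, 350.2 and 219.9 and 1 with 36.6, 72.4 and 43.5 gave the same calls, and 1 with 17.0, 1.0 and 48.4 did not. Ager, which encodes RAGE, had 46.6, 3.6 and 31.7 and so barely reached 40 in WT alone.

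Alcam, encoding an adhesion molecule that binds S100 proteins, had 1430, 802 and 1166 and was lower in KO than in WT by all 5 of its probe sets as deposited, but its log2 fold change was −0.56, not past the cut-off, after scaling to a common median. The other receptor genes named by the rule were Nptn, encoding neuroplastin, with 6610, 7397 and 8296, Bsg, encoding basigin, with 4305, 5222 and 4514, Cd36 with 3894, 4301 and 4202, and Myd88, the adaptor downstream of TLR4, with 984, 1363 and 1096. Their differences were under 1.5-fold as deposited, and after scaling to a common median Myd88 was higher in KO than in WT.

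The other 5 S100 genes had signals from 2905 to 20187 at their strongest probe sets, and these stayed within 1.5-fold in each comparison. S100a4, whose protein binds nonmuscle myosin, had 10591 in WT, 12516 in KO and 14215 in KOE. S100a6, the calcyclin gene, had 15508, 16186 and 19920.0. As deposited, both had the order WT, KO, KOE, and KOE was 1.34-fold and 1.28-fold above WT. S100a13, whose protein helps export FGF1 and IL-1 alpha, had 2905, 3506 and 3062, and S100a16 had 14393, 12437 and 11471.

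For S100a6, S100a13 and S100a16 the sign of 1 small difference each depended on the scaling, while S100a4 and S100a10 kept theirs in each comparison under the 3 scalings tried. In KO vs. WT the log2 fold change of S100a6 was 0.06 as deposited but −0.01 after quantile and −0.12 after loess normalization. That of S100a16 was −0.21 as deposited and 0.06 after scaling to a common median, which moves every gene alike. That of S100a13 in KOE vs. WT was 0.08 as deposited and −0.01 after loess normalization. At mean signals of 1000 or more, the spread between probe sets of a gene had an SD of 0.21 in KO vs. WT, 0.19 in KOE vs. KO and 0.19 in KOE vs. WT, over 1305 genes. A second S100a16 probe set read 13883, 10930.1 and 11238 in the WT, KO and KOE arrays, so its probe sets did not share the order of KO and KOE.

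S100a10, the annexin A2 partner also called p11, was the nearest to the cut-off among them. Its strongest probe set read 13658, 20187 and 16234 in the WT, KO and KOE arrays, and KO was 1.48-fold above WT. The second had 10896, 17258 and 14251 and the third 288, 449.6 and 386, with KO 1.58-fold and 1.56-fold above WT. All 3 probe sets thus had the order WT, KOE, KO, with 2 of them past 1.5-fold in KO vs. WT. Scaled to a common median the strongest probe set gave a log2 fold change of 0.83 for KO vs. WT, and the mean of all 3 probe sets gave 0.62, both past the cut-off.

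Of the other S100 genes, 5 were measured and 3 reached 40. S100a14, an epithelial member, had 8808 in WT, 9580 in KO and 8435 in KOE. S100a1, best known from heart and skeletal muscle, had 5004, 3067 and 3047 and was lower in KO and in KOE than in WT. The KO vs. WT difference was not past the cut-off after scaling to a common median. Its second probe set, with 1238, 954 and 962, was not past the cut-off. S100b, best known from glia and Schwann cells, had 284, 359 and 433, with KOE 1.52-fold above WT. After scaling to a common median it was also higher in KO than in WT. Its second probe set, with 167, 177 and 240, was not past the cut-off as deposited. S100a5 and S100g were under 40 on every array.

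Intracellular partners of S100 proteins were mostly level. Of 18 measured genes 1 was higher and 4 lower in KO vs. WT, and 3 were higher and none lower in KOE vs. KO. Anxa2, the annexin bound by S100A10, read 19948, 25450 and 24760 in the WT, KO and KOE arrays, and Anxa1, bound by S100A11, had 26454, 31782 and 30399. Ahnak, encoding a scaffold of the annexin A2 complex, had 18096, 20407 and 20273, and Anxa5 had 10277, 11831 and 12743. Each of these was within 1.5-fold, although Anxa2 was higher in KO than in WT after scaling to a common median, and 2 weaker Ahnak probe sets were past the cut-off in that direction.

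Some membrane and secreted partners did differ. Trpv6, a calcium channel carried to the membrane by the S100A10 and annexin A2 complex, had 360.2 in WT, 49.3 in KO and 84.1 in KOE, 7.30-fold higher in WT than in KO. Its KOE vs. KO difference was 1.70-fold and was lost after quantile normalization. Htr1b, a serotonin receptor that binds p11, had 116, 79.3 and 209, and Fgf1, the growth factor whose release involves S100A13, had 270.2, 214 and 402. At these probe sets both were higher in KOE than in KO, while S100a10 and S100a13 themselves were within 1.5-fold at their strongest probe sets. A second Htr1b probe set, with 15.1, 38.1 and 42.1, was not past the cut-off in KOE vs. KO. For Fgf1, a probe set with 96.0, 97.0 and 222.6 gave the same call, and one with 57.9, 60.9 and 78.5 did not.

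All 10 members lie on chromosome 3, with 22 genes of the S100 and fused-type S100 families there in all. Fused-type genes, such as Flg for filaggrin and Tchh for trichohyalin, join an S100 domain to a long repeat region of the cornified layer or hair follicle. In genome order the first cluster runs from S100a1 through S100a13, S100a14, S100a16, S100a3, S100a2, S100a4, S100a5, S100a6, S100a7a, S100a8 and S100a9 to S100a7l2. Then 47 coding genes lie before Crnn, Flg2, Flg, Hrnr, Rptn, Tchh, Tchhl1, S100a11 and S100a10.

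Some neighbours in this order differed widely and others did not. S100a3, with a KO vs. WT log2 fold change of −7.42, has S100a16, with −0.21, on 1 side. On the other side S100a4, with 0.24, lies beyond S100a2, which had no value. S100a9, with 1.55, has S100a8, with −0.27, on 1 side and, with 1 coding gene between, S100a7l2, with −6.41, on the other. In KOE vs. KO S100a7l2 was at 5.74, while S100a8 and S100a9 were both lower in KOE, at −1.47 and −0.96. In KO vs. WT the adjacent fused-type genes Tchh and Tchhl1 were both low, at −6.45 and −8.29, and S100a13, S100a14 and S100a16 lay together at 0.27, 0.12 and −0.21.

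**Figure D4:**
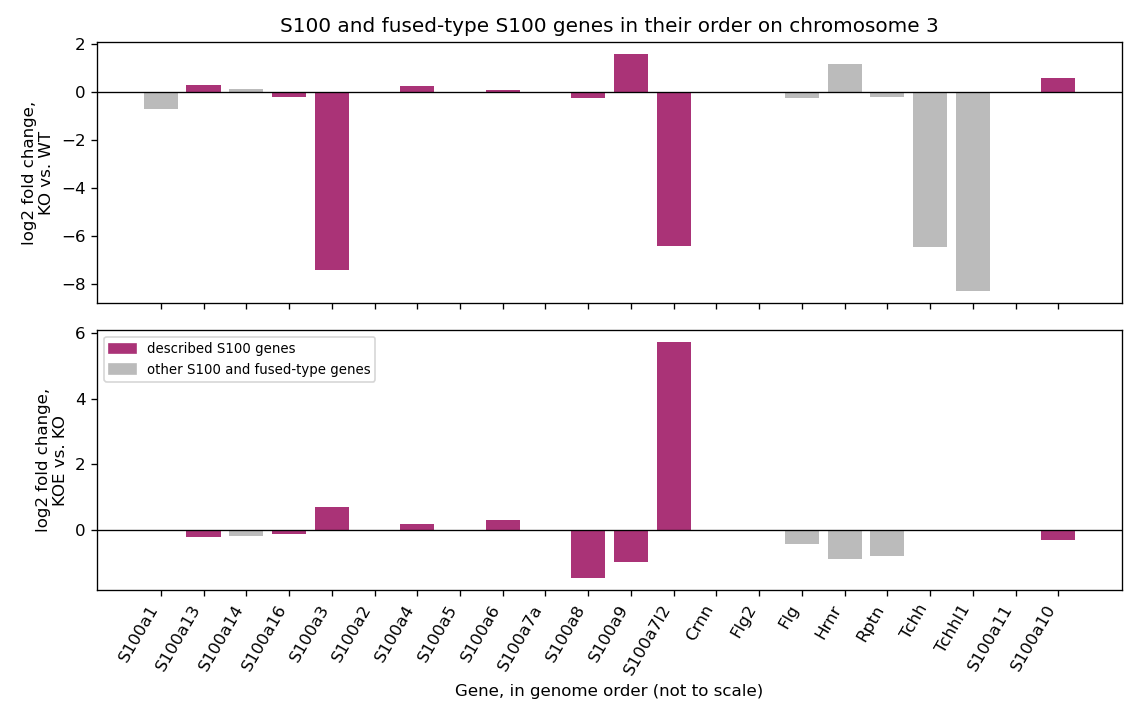
Log2 fold change in KO vs. WT (top) and KOE vs. KO (bottom) of S100 and fused-type S100 genes in their order on chromosome 3, not to scale, from 1 array per group, with the described S100 genes in purple and others in grey. Genes with no bar had no value or were under 40 in both arrays, except S100a1 and Tchh in KOE vs. KO, which lie at −0.01 and 0.00. Long bars such as S100a3 at −7.42 stand beside short ones such as S100a16 at −0.21.

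The fused-type genes fell on either side as well. Of 5 measured, 1 was higher and 2 lower in KO vs. WT, and 2 were lower in KOE vs. KO. Tchh and Tchhl1, of the hair follicle, had the pattern of S100a3, Tchh with 24309, 279 and 278 in the WT, KO and KOE arrays and Tchhl1 with 4971, 15.9 and 37.3. Hrnr, encoding hornerin, had 2815, 6257 and 3372, the order of S100a9. Flg had 2139, 1795 and 1326, and Rptn, encoding repetin, had 1678, 1426 and 819, the order of S100a8 at these probe sets. The other Rptn probe sets, with 34.4, 52.3 and 34.7 and with 36.7, 54.6 and 47.9, were highest in KO, and the first of them was past the cut-off in KO vs. WT.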

How the data were processed

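Pooled RNA (250 ng) from back skin was measured on Affymetrix GeneChip mouse genome arrays, 1 array per group (WT, KO, KOE). The deposited signal intensities are on a linear scale and were normalized by the authors with Microarray Analysis Suite 5, and their 2% trimmed mean was checked to be 500.003 on each array. Image files were not analysed here, and the number of probes limits the precision. Of 45101 probe sets, 64 controls were left out. The platform annotation gives 1 gene for 34945 probe sets, several for 932 and none for 9160, and symbols were updated through RefSeq identifiers.

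For each gene the probe set of highest mean signal was used. Fold changes are ratios of deposited signals with the methods' cut-off of 1.5-fold and 40, where the array that must reach 40 was taken as at least 1 of the 2. No test across mice was possible with 1 array per group, so no p-value is given. List medians are over genes at 40 or more in at least 1 of the 2 arrays.

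The members, 17 gene lists and all rules were chosen with earlier results of these data known. Named genes are all members and, from each list of S100 relatives, partners, receptors and inducers, the 4 strongest and the 2 with the largest difference in KO vs. WT and in KOE vs. KO, plus the 5 nearest patterns of S100a7l2, S100a3 and S100a8. The other lists are cell type markers, and their genes named in the text were picked after their values were seen. Listed genes with no probe set of their own under the names used are not analysed here.

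Alternatives were scaling to a common median, quantile and cyclic loess normalization, other signal limits (40 in both arrays, 100, none), 40 added to every signal, a 2-fold limit, the mean of all probe sets, and probe sets without an x or s suffix. The calling procedure was tested on simulated data with changes well past the cut-off in genes of higher signal. That test does not check calls near the cut-off or at low signal. Python 3.11.15, numpy 2.4.6, pandas 2.3.3, scipy 1.17.1, matplotlib 3.10.9, R 4.3.3 and limma 3.58.1 were used.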

Additional observations from a re-analysis of the deposited data

How the results depend on the processing

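No paired analysis was possible because each group has 1 array. Over the 10 alternatives, 2 log2 fold changes of single S100 genes passed the cut-off and 9 lost it, and none past it changed sign. The signal limits tried could not move these genes, which were above 40 on every array, and the probe set alternatives could not move most genes with 1 probe set. Genes higher in KO than in WT numbered 2 in place of 1, S100a10 being the added one, after scaling to a common median or with all probe sets averaged. Genes higher in KOE than in KO numbered 1 in place of 2, without S100a3, after common median or quantile scaling, with 40 added (log2 0.50) and with a 2-fold limit. Genes higher in KOE than in WT numbered 0 in place of 1, without S100a9, with 40 added and with a 2-fold limit. Genes lower in KOE than in KO numbered 1 in place of 2 with a 2-fold limit, without S100a9, and with probe sets free of an x or s suffix, where S100a8 has none and 8 genes remain. S100a7l2 was not past the cut-off in KOE vs. WT after common median scaling or with a 2-fold limit.

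Scaling to a common median moved the median log2 fold change of all genes by 0.28 in KO vs. WT, −0.16 in KOE vs. KO and 0.11 in KOE vs. WT. In KO vs. WT 1582 genes were higher and 2105 lower as deposited, and 3381 and 1291 after that scaling. Of the genes past the cut-off in KO vs. WT, 42.9% were higher as deposited, 72.4% after common median, 57.4% after quantile and 52.5% after loess scaling. The same shares were 67.1%, 47.1%, 49.6% and 48.7% in KOE vs. KO and 54.3%, 66.6%, 58.2% and 51.5% in KOE vs. WT. In KOE vs. KO, 1585 genes were higher and 778 lower as deposited, 1181 and 1326 after common median, 1127 and 1145 after quantile and 1025 and 1080 after loess scaling. With a 2-fold limit the higher and lower counts were 619 and 1125 in KO vs. WT, 768 and 334 in KOE vs. KO and 715 and 828 in KOE vs. WT. With no signal limit they were 2778 and 3355, 2944 and 1697, and 3160 and 2451. With 40 added they were 914 and 466 in KOE vs. KO and 1831 higher genes became 1194 in KOE vs. WT. With 40 in both arrays they were 780 and 444 in KOE vs. KO, 1140 were higher in KOE vs. WT and 1371 lower in KO vs. WT. With 100 in at least 1 array 1391 were lower in KO vs. WT, 647 and 384 were higher and lower in KOE vs. KO, and 1035 higher in KOE than in WT. Differences near 1.5-fold at signals under 200 are within the spread between probe sets.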
